A study of Mus musculus and Rattus norvegicus with 2 samples.

Results

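miR-191 and miR-425 are microRNAs (miRNAs) made from neighbouring hairpins on mouse chromosome 9, and their reads were described here in small RNA libraries of mouse and rat sperm. Members were the deposited sequences annotated as miR-191 or miR-425 of either species, any arm, plus sequences under any other label that began with the same 18 nt as the most read mouse sequence of each name. Both miRNAs were found in each library, among 298 mature miRNA names in all, 227 in the mouse and 189 in the rat. Of the listed sequences with a count, 72 of 86644 in the mouse and 78 of 137388 in the rat were members. Some are in both libraries, so these are 114 distinct sequences. A further 3 mouse sequences met the rule but have a date in place of their count and were left out.

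The mice were C57BL/6, aged 2 months, and the rats Sprague Dawley, young adults that weighed 450 g. Sperm labelled as purified were collected from the cauda, where mature sperm wait at the end of the epididymal duct. Total RNA was extracted with Trizol, and RNA of 18 to 45 nt went into Illumina libraries. There was 1 library per species, so strain, age and library preparation cannot be told apart from species, and the number of animals pooled in each was not given in the sources read here.

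Both hairpins are cut from a common primary transcript by the nuclear enzyme Drosha, and Dicer then releases a short duplex from each. Usually 1 strand of the duplex, named 5p or 3p by its place in the hairpin, is kept by an Argonaute protein and pairs with target RNAs through its seed, bases 2 to 8. The ends of a miRNA vary between molecules because cutting is not exact, because exonucleases trim the 3′ end, and because nucleotidyl transferases can add bases that the genome does not encode. The resulting forms are called isomiRs. Sperm carry miRNAs that remain from the testis and others taken up in the epididymis.

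The 4 mature sequences of the locus are shown because all member reads were read against them. They are RefSeq's, GRCm38.p6, 5′ to 3′, with the seed in capitals.
miR-191-5p: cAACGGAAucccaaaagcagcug
miR-191-3p: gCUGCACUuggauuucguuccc
miR-425-5p: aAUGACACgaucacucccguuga
miR-425-3p: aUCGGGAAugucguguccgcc
On GRCm38 the plus strand holds miR-191-5p at chr9:108568325-108568347, miR-191-3p at chr9:108568367-108568388, miR-425-5p at chr9:108568789-108568811 and miR-425-3p at chr9:108568830-108568850. Although they share a transcript, the pair of 5p miRNAs are unlike in sequence: 5 of 23 positions hold the same base, and the seeds differ. Among the mature miRNAs of the RefSeq table, the seed AACGGAA belonged to miR-191-5p alone, whereas miR-425-5p shared AUGACAC with miR-489-3p, which had 0 reads in both libraries.

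The Mir191 hairpin spans 74 nt at chr9:108568319-108568392 and the Mir425 hairpin 85 nt at chr9:108568777-108568861, with 384 bases between them. They are shown whole because arm use and templated 3′ bases are read from them, with the 5p and then the 3p arm in capitals.
Mir191: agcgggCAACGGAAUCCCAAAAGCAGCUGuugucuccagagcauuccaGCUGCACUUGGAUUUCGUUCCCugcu
Mir425: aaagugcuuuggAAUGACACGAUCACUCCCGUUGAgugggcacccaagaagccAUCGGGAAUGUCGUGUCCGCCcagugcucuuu
In GENCODE M21 both lie within the single exon of the lincRNA transcript 4833445I07Rik-201, chr9:108567533-108569174, on the plus strand. A miRNA gene on the minus strand, Gm24083, overlaps Mir191. The RefSeq gene table gives the protein-coding host gene Dalrd3, chr9:108567484-108572773, as spanning both hairpins, while GENCODE M21 starts Dalrd3 downstream of them at 108569886. The host gene left almost no trace among small RNAs: 1 mouse sense read of 18 nt and 1 antisense read matched its transcripts exactly, and 0 sequences carried its name.

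miR-191-5p was among the most read miRNAs of both libraries, and miR-425-5p was far rarer. miR-191-5p had 2978 reads in 59 sequences in the mouse (exact Poisson 95% interval 2872 to 3087) and 3215 reads in 61 sequences in the rat (3105 to 3328). That was 126686 and 123887 reads per 1000000 reads of named mature miRNAs, of which the mouse library had 23507 and the rat 25951. miR-425-5p had 50 reads in 13 sequences in the mouse (37.1 to 65.9) and 79 reads in 17 sequences in the rat (62.5 to 98.5), or 2127 and 3044 on the same scale. Every interval in the text covers counting error and nothing else. It takes reads as independent, which PCR copies are not, so even that error may be larger than the intervals show. With 1 library per species no difference between species could be tested.

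By deposited name alone, miR-191-5p ranked 4 of 227 mature miRNA names in the mouse with 2321 reads and 4 of 189 in the rat with 2920 reads. Its neighbours in the mouse were miR-143-3p above with 2392 reads and miR-16-5p below with 1278. In the rat they were miR-16-5p above with 3083 reads and miR-22-3p below with 1239. The gap below miR-191-5p was wide in both libraries, with log2 ratios of 0.86 over miR-16-5p (0.76 to 0.96) and 1.24 over miR-22-3p (1.14 to 1.33). The gap above was narrow, at -0.04 against miR-143-3p in the mouse (-0.13 to 0.04) and -0.08 against miR-16-5p in the rat (-0.15 to -0.0049), the latter just beyond counting error. miR-425-5p, with 32 mouse reads by name, ranked 34, level with miR-486-5p and next to miR-449a-5p at 36 reads. In the rat its 56 reads by name gave rank 29, level with miR-15b-5p and next to miR-672-5p at 54 reads. The interval of its log2 ratio to each of these 4 neighbours held 0.

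The level of miR-191-5p in the mouse over the rat was 0.03 on the log2 scale (95% interval -0.04 to 0.10) when all its reads were scaled to named mature miRNA reads, but -0.19 (-0.27 to -0.11) when only its own named reads were counted, as they are for the other miRNAs. miR-425-5p was lower in the mouse by both counts, with log2 ratios of -0.52 (-1.06 to 0.01), an interval that held 0, and -0.66 (-1.34 to -0.01). With dated mouse counts read as the month number, the ratio over all its reads was -0.31. Scaling to all listed reads raised the ratio of miR-191-5p by 1.46 and that of miR-425-5p by 1.44 and turned both members to the mouse side, at 1.49 for miR-191-5p and 0.93 for miR-425-5p. Neither member passed a 2-fold ratio by name, 0 of 2, whereas 15 of the 39 names with at least 10 reads in both libraries did, a share of 38.5%. The median log2 ratio of those names was -0.30, so that by name miR-191-5p lay 0.11 above the median and miR-425-5p lay -0.37 from it. When the miRNAs of the RefSeq table were counted by their first 18 nt, whatever their label, 18 of 44 passed 2-fold, a share of 40.9%, and neither member did, at -0.25 (-0.32 to -0.17) and -0.71 (-1.26 to -0.17). These lay 0.05 and -0.41 from the median of the starts, so miR-191-5p was close to the median by both counts. By first 18 nt it ranked 3 among the starts found in each library, with 2883 mouse and 3136 rat reads. The RefSeq table holds no miR-34c-5p or miR-143-3p, so these stand outside that ranking.

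**Figure D1:**
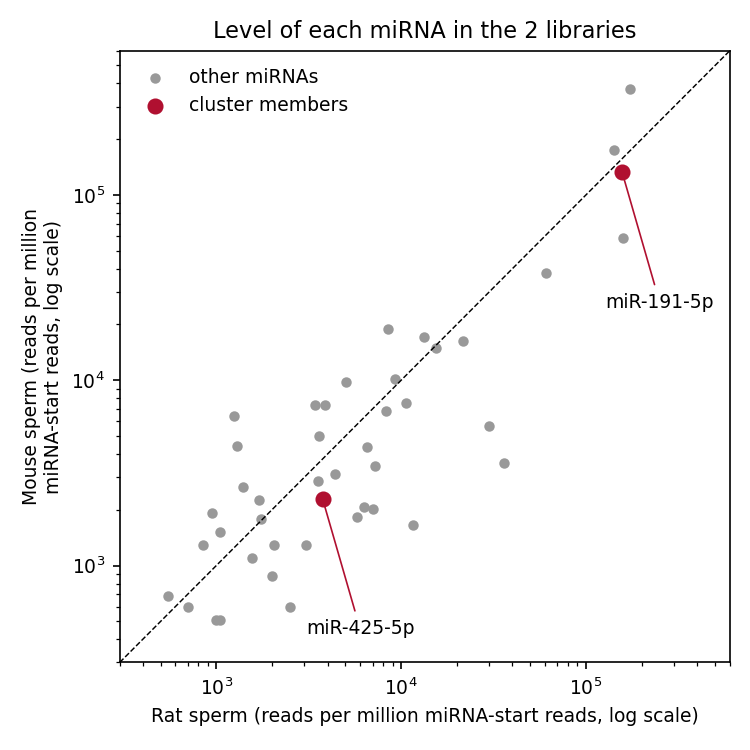
Level of each miRNA with at least 10 reads in both libraries, counted by its first 18 nt, in the rat (x axis) and the mouse (y axis), as reads per 1000000 reads that begin as a RefSeq mouse miRNA, on log scales. Each point is 1 miRNA in 1 library per species, the dashed line marks equal levels, and miR-191-5p and miR-425-5p both sit below it, at log2 ratios of -0.25 and -0.71.

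Among the 13 names with at least 100 reads in both libraries, those with a log2 ratio nearest to the -0.19 of miR-191-5p were miR-26a-5p at -0.29, let-7c-5p at -0.30 and miR-22-3p at -0.42. Nearest to miR-425-5p were miR-10a-5p at -0.64, miR-22-3p at -0.42 and let-7c-5p at -0.30. In the rat, reads that begin as miR-10b-5p stand under the name miR-10a-5p, and by first 18 nt miR-10a-5p was at 0.31. Over the 14 miRNAs compared by first 18 nt, the nearest to miR-191-5p were miR-148a-3p at -0.28, the shared start of let-7a-5p and let-7c-5p at -0.40, and miR-30a-5p at -0.05. The nearest to miR-425-5p were miR-22-3p at -0.69, miR-26a-5p at -0.50 and the same let-7 start. Each likeness rests on 2 libraries and is a description.

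Some markers of cell types differed widely between the libraries. The 4 germ cell miRNAs examined summed to 376 mouse and 6922 rat reads, mostly miR-34c-5p with 255 and 5785. The 4 stroma and smooth muscle miRNAs summed to 2415 and 845 reads, nearly all miR-143-3p with 2392 and 813. The rest of that list was low in both, with miR-145a-5p at 13 and 15 reads, miR-199a-3p at 8 and 15 and miR-133a-3p at 2 and 2. The 5 epithelial miRNAs summed to 231 and 135 reads, mostly miR-141-3p with 213 and 101, whereas 5 and 24 reads were of miR-200a-3p. The 6 blood miRNAs summed to 49 and 14. In the blood list miR-150-5p and miR-223-3p were at 0 in the mouse, and miR-486-5p and miR-144-5p in the rat. In bulk RNA fewer cells of a type and less RNA per cell cannot be told apart, and the part of other cells in the members' levels was not tested.

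The balance of the pair leaned heavily to miR-191. In the mouse there were 59.6 miR-191 reads per miR-425 read (95% interval 45.1 to 80.4), and in the rat 40.7 (32.6 to 51.5). miR-425 thus made 1.65% of the cluster's reads in the mouse (exact Clopper-Pearson interval 1.23 to 2.17) and 2.40% in the rat (1.90 to 2.98), and the intervals overlapped. Other clusters were also uneven. Among other miRNA clusters with at least 100 reads, counted by first 18 nt, the leading member held 98.2% of mouse and 97.1% of rat reads in the cluster of mir-200c and mir-141, and 91.0% and 92.7% in that of mir-99b, let-7e and mir-125a. With 98.3% and 97.7%, the locus of miR-191 ranked 1 of 4 clusters in the mouse and 1 of 3 in the rat. Its lead over mir-200c and mir-141 was within counting error. The intervals of that cluster were 95.3 to 99.5 in the mouse and 91.8 to 99.4 in the rat. The preset clusters of mir-143 and mir-145 and of mir-34b and mir-34c were not counted, since the RefSeq table holds no miR-143-3p or miR-34c-5p. By deposited name, miR-143-3p had 2392 mouse and 813 rat reads, beside 13 and 15 of miR-145a-5p. The rank of 1 therefore holds only for the clusters counted. The cluster of mir-15a and mir-16 had higher shares, 99.6% and 98.1%, but was also left out of the ranking, since miR-16-5p is made from 2 hairpins and its reads cannot be assigned to either.

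All miR-191 reads came from the 5p arm. Of reads that matched a mouse hairpin exactly, 2829 mouse and 3074 rat reads fell on Mir191. None of them was from the 3p arm, which allows shares of up to 0.106% and 0.0976%. On Mir425, 35 mouse and 59 rat reads matched exactly, all from the 5p arm. Allowing 2 mismatches added a single rat read of the miR-425-3p arm, catcgggaatatcgtgtccgc, which begins 1 base before the RefSeq 3p start. It differs from the mouse precursor by G11A, counted from 1 at the 5′ end of the read, and carries no mismatch in the deposited rat annotation. A count of 0 on the miR-425-3p arm of the mouse allows up to 8.57%, so the depth says little about that arm. No read matched the opposite strand of either hairpin exactly.

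A minor arm at 0 was common. In the mouse, 24 hairpins had at least 100 reads, but some share the start of their leading arm and so the same reads, which left 18 leading starts. Of these, 14 had 0 reads of the minor arm and 13 were 5p. In the rat, 26 hairpins gave 21 leading starts, of which 14 had 0 reads of the minor arm and 15 were 5p. The highest minor arm share was 2.61% in the mouse, at Mir148a, and 20.2% in the rat, at Mir34b.

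**Figure D2:**
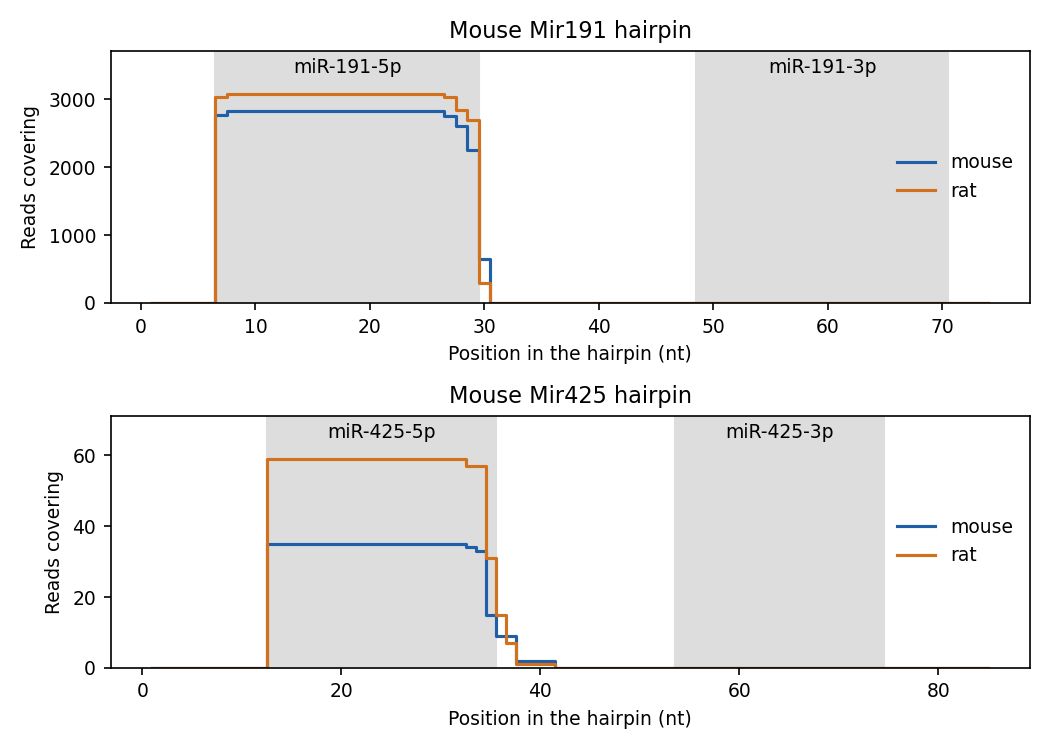
Number of reads that match the mouse Mir191 and Mir425 hairpins exactly (y axis, from 0) at each hairpin position (x axis, nt from the 5′ end), for the mouse and the rat library. Coverage forms a single block over the 5p arm of each hairpin, and the 3p arms are at 0. The single rat read of the miR-425-3p arm differs from the mouse hairpin by G11A, so an exact match leaves it out.

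The 5′ end of miR-191-5p, which sets the seed, was nearly uniform. It was at the RefSeq position in 2926 mouse reads, 98.3%, and in 3188 rat reads, 99.2%. Reads under precursor entries that begin later fell outside the member rule, so later starts are undercounted and their shares cannot be compared between libraries. Exact coverage of Mir191 rose from 2773 to 2828 mouse reads between bases 1 and 2 of miR-191-5p, and from 3033 to 3073 rat reads. Among member reads, a start 1 base later was seen in 51 mouse reads, 1.71% (1.28 to 2.25), and 27 rat reads, 0.840% (0.554 to 1.22). Most of them were a single form, aacggaatcccaaaagcaGCTG, with 47 mouse and 24 rat reads, whose capitals mark the bases past position 18. All 50 mouse and 79 rat reads of miR-425-5p began at the RefSeq position. Of these, 18 mouse and 23 rat reads stood under precursor entries. They could begin nowhere else, because the rule chose them by their first 18 nt.

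The 3′ end of miR-191-5p differed between the libraries. The forms that carry this difference are shown with the bases past position 18 in capitals. Each matches the mouse hairpin throughout, and the hairpin holds the last base of the 24 nt form, T, at that place. A T added to the 23 nt form would give the same sequence, so encoded and added bases cannot be told apart there.
miR-191-5p of 22 nt: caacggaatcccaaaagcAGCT
miR-191-5p of 23 nt: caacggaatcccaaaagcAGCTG
miR-191-5p of 24 nt: caacggaatcccaaaagcAGCTGT
The 23 nt form, which is the RefSeq mature sequence, had 1559 mouse reads, 52.4% (50.5 to 54.2), and 2383 rat reads, 74.1% (72.6 to 75.6). The 24 nt form had 639 mouse reads, 21.5% (19.99 to 22.98), and 273 rat reads, 8.49% (7.55 to 9.51). The 22 nt form had 353 mouse reads, 11.9% (10.7 to 13.1), and 148 rat reads, 4.603% (3.91 to 5.39). The rat library thus held relatively more of the 23 nt form and the mouse library more of the forms on either side, beyond counting error. At 21 nt the order was the other way, with 4.80% of mouse reads and 5.91% of rat reads, and these intervals overlapped. The 24 nt sequence carried no mismatch to the rat entry either.

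With mismatched reads included, 23 nt was the most frequent length in both libraries, with 56.7% of mouse reads (54.9 to 58.5) and 78.1% of rat reads (76.6 to 79.5). Reads of 20 to 24 nt made 99.6% and 99.7%. Reads longer than 23 nt made 22.1% of mouse reads (20.6 to 23.6) and 9.18% of rat reads (8.20 to 10.2). Shorter reads made 21.3% and 12.8%.

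**Figure D3:**
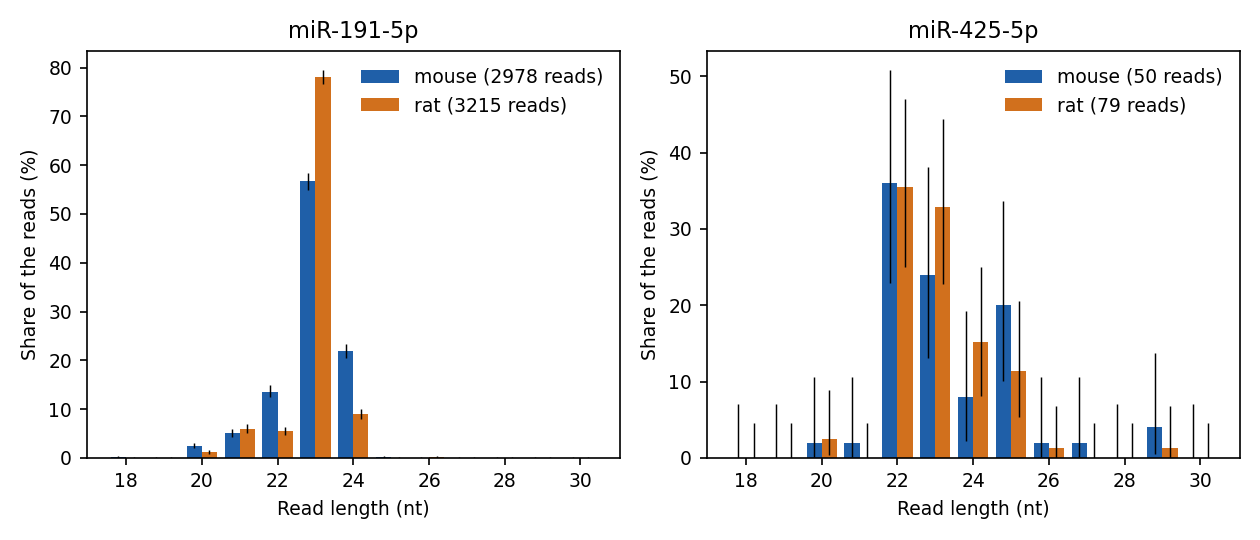
Share of the reads of miR-191-5p and of miR-425-5p (y axis, percent, from 0) at each read length (x axis, nt) in the mouse and rat libraries, with exact 95% binomial intervals as error bars. miR-191-5p peaks at 23 nt, with 56.7% of mouse and 78.1% of rat reads, and miR-425-5p peaks at 22 nt with wide intervals.

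The longer reads bear on how miR-191 is counted. All 657 mouse reads and all 295 rat reads longer than 23 nt stood under GenBank precursor entries and not under the mature name, so a count by mature name misses 22.1% of mouse and 9.18% of rat reads. In the rat, 273 of these were the 24 nt form on 1 precursor entry. The other 22 reads, in 11 sequences that all carried mismatches to it, stood on a second rat precursor entry on the minus strand. Turned back to the read's own strand, they begin as miR-191-5p. For miR-425-5p, 18 mouse reads, 36.0%, and 23 rat reads, 29.1%, stood under precursor entries.

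The difference in longer forms was set against other miRNAs, counted by first 18 nt. miR-99b-5p, with 373 mouse and 265 rat reads, was not among those compared, so ranks and medians are without it. In the mouse, 22.8% of miR-191-5p reads were longer than the RefSeq sequence, rank 5 of 17 miRNAs with at least 100 reads, whose median was 11.7%. In the rat it was 9.41%, rank 12 of 22, with a median of 11.2%. Over the 13 miRNAs that could be followed in both libraries, the share was higher in the mouse for 7 and in the rat for 6. The median difference was 2.53 percentage points. miR-191-5p, at 13.4 points, came second after miR-21a-5p at 24.9. The share at the most frequent length moved the other way: it was 21.2 points lower in the mouse for miR-191-5p, the lowest of the 13 differences, against a median of 9.64 points higher. The share of reads longer than RefSeq therefore showed no common shift between the libraries. Other measures leaned to longer mouse reads. Mean length was higher in the mouse for 10 of the 13, with a median difference of 0.17 nt. The share of shorter reads was higher in the rat for 9 and in the mouse for 4. Since miR-191-5p also had more shorter reads in the mouse, its mean length hardly differed, at 22.92 nt for mouse reads and 22.89 nt for rat reads. These ranks describe the 2 libraries and were not tested.

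**Figure D4:**
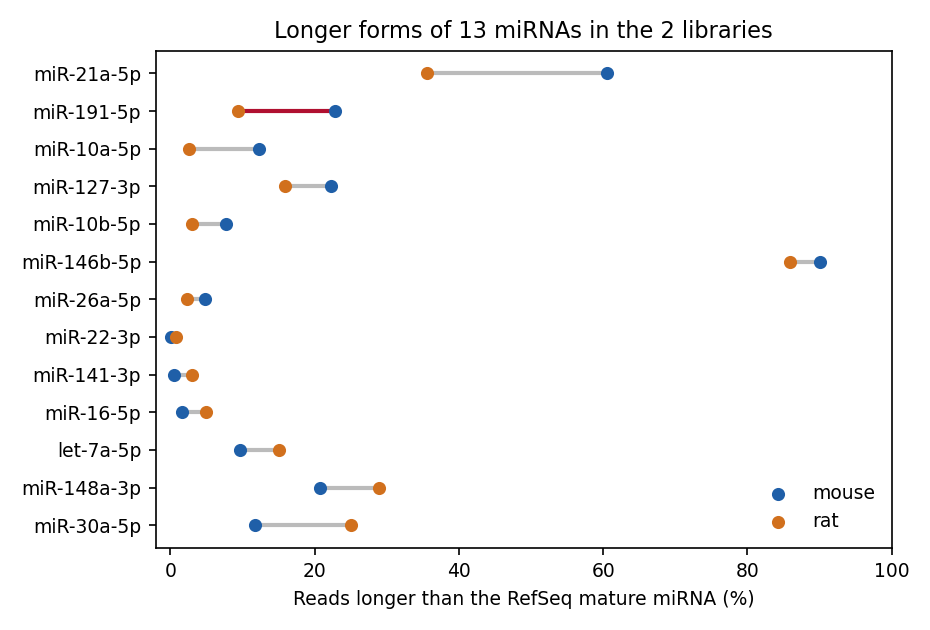
Share of reads longer than the RefSeq mature miRNA (x axis, percent) for 13 miRNAs with at least 100 reads in each library (y axis), 1 point each for the mouse and the rat. miR-99b-5p also reached 100 reads in each but is not among the 13. miR-191-5p lies at 22.8% for mouse and 9.41% for rat, the largest excess in the mouse after that of miR-21a-5p.

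miR-425-5p had a more ragged 3′ end. Its main forms are shown with the bases past position 18 in capitals. The last of them ends in a base that the mouse hairpin does not hold.
miR-425-5p of 22 nt: aatgacacgatcactcccGTTG
miR-425-5p of 23 nt: aatgacacgatcactcccGTTGA
miR-425-5p of 25 nt: aatgacacgatcactcccGTTGAGT
miR-425-5p with A23T: aatgacacgatcactcccGTTGT
The most read form was 22 nt long in both libraries, 1 base shorter than RefSeq's, with 18 of 50 mouse reads and 26 of 79 rat reads. The 23 nt RefSeq form had 6 and 16 reads, and the encoded 25 nt form 7 and 6. The form with A23T had 6 and 7 reads. An encoded 24 nt form, aatgacacgatcactcccGTTGAG, had 8 reads in the rat and 0 in the mouse table used, although a mouse sequence with a spoiled count holds it. Encoded reads reached 29 nt, 6 bases past the RefSeq end, with 2 mouse reads and 1 rat read. Reads longer than 23 nt made 36.0% for the mouse (22.9 to 50.8) and 29.1% for the rat (19.4 to 40.4), and these intervals overlapped.

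Bases that do not match the precursor were concentrated at the 3′ end. In miR-191-5p, 153 mouse reads, 5.14% (4.37 to 5.99), and 158 rat reads, 4.91% (4.19 to 5.72), held a mismatch, and all 72 mouse and 78 rat sequences gave the same mismatches here as in the deposited annotation. The last base was mismatched in 90 mouse reads, 3.02% (2.44 to 3.70), and 80 rat reads, 2.49% (1.98 to 3.09). Over positions 1 to 21 the mismatch rate was 0.0896% of bases in the mouse and 0.0867% in the rat. At position 23 it was 3.80% of mouse reads (3.06 to 4.65) and 2.75% of rat reads (2.17 to 3.42). The increase towards the end was far beyond counting error in both libraries, while the intervals of the libraries at position 23 overlapped in part. Both mouse sequences left out for a dated count hold a mismatch at position 23, with 11 and 8 reads by month number. With them the mouse rate there would be higher, and the overlap may not hold.

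At position 23, where the precursor holds G, G23T had 32 mouse and 36 rat reads, G23A 32 and 23, and G23C 25 and 18. Reads with an encoded body of 22 nt and 1 mismatched base after it ended in T in 29, A in 25 and C in 24 mouse reads, and in T in 28, A in 21 and C in 15 rat reads. No single base dominated these mismatched ends, and whether the bases were added or misread was not tested. A read with G in that place is the encoded 23 nt form, so an added G cannot be seen.

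miR-425-5p had a larger share of mismatched ends. A mismatched last base was found in 13 of 50 mouse reads, 26% (14.6 to 40.3), and in 15 of 79 rat reads, 18.99% (11.0 to 29.4). Both shares lay above those of miR-191-5p with no overlap of intervals. The measure does not see the same additions in both members, however. The hairpin holds T after the 23 nt form of miR-191-5p, so an added T counts as a match there. After the 22 nt form of miR-425-5p it holds A, so an added T counts as a mismatch. The gap therefore cannot be read as a difference in added bases. The mismatched base was T in 10 of 13 mouse reads and 10 of 15 rat reads, A in 3 and 4, G in 0 and 1, and C in none. Of the reads ending in T, 6 in the mouse and 7 in the rat had a matched body of 22 nt. An A added to that body gives the encoded 23 nt form and cannot be seen, so T and A cannot be compared there. T in these tables stands for U in the RNA. Over positions 1 to 21, 0 of 1049 mouse bases and 4 of 1657 rat bases were mismatched.

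A smaller excess in miR-191-5p stood at position 2, with 0.513% of mouse reads (0.287 to 0.844) and 0.502% of rat reads (0.287 to 0.814). The change A2C had 6 and 12 reads. In part of the other miRNAs position 2 also stood out: it was the highest of positions 1 to 18 in 9 of 18 other mouse names and 9 of 22 other rat names with at least 100 reads. Their median rate there was 0.528% and 0.410%, beside 0.646% and 0.582% for miR-191-5p counted by name. This comparison was chosen after the values were seen.

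**Figure D5:**
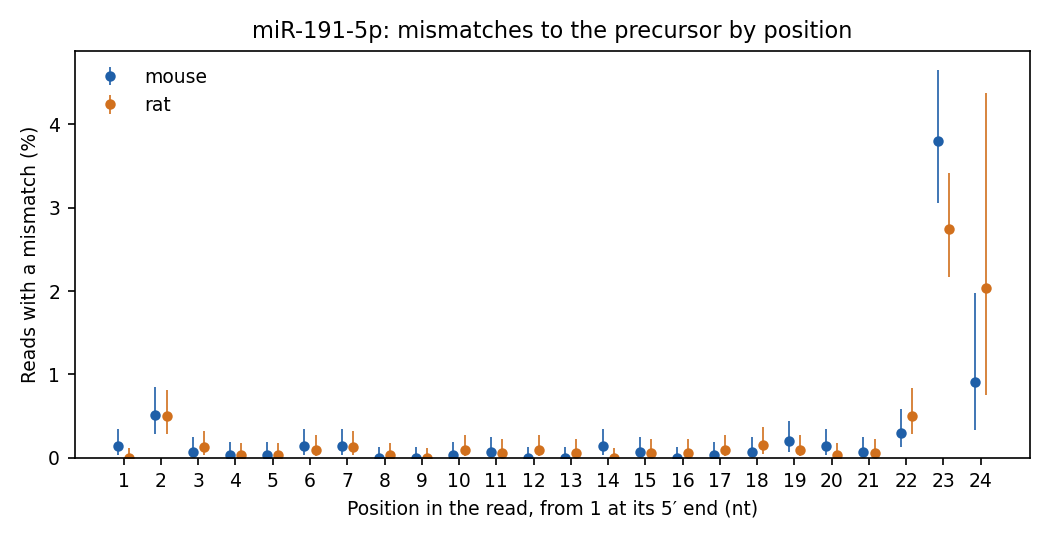
Share of miR-191-5p reads with a mismatch to the precursor (y axis, percent, from 0) at each position of the read, counted in nt from 1 at its 5′ end (x axis), in the mouse and rat libraries, with exact 95% binomial intervals. Rates stay near 0 along the body, with a small rise at position 2 (0.513% and 0.502%), and reach 3.80% and 2.75% at position 23.

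Compared with other miRNAs counted by first 18 nt, again without miR-99b-5p, the 3′ mismatches of miR-191-5p were few. Its last base was mismatched in 3.05% of mouse reads, rank 13 of 17 with a median of 4.97%, and in 2.49% of rat reads, rank 16 of 22 with a median of 5.66%. Counted by mature name, which leaves out the longer reads, it stood higher in the mouse, at 3.53% and rank 5 of 19, and in the middle in the rat, at 2.36% and rank 12 of 23. Its place in the order thus depended on how reads were gathered.

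Most of each member's reads were sequences found in both species. For miR-191-5p, 26 sequences were shared, of 59 mouse and 61 rat sequences, and they held 98.4% of its reads in each. For miR-425-5p, 10 sequences were shared, of 13 in the mouse and 17 in the rat, with 92.0% and 82.3% of the reads. Sequences read once numbered 33 and 34 for miR-191-5p and 5 and 9 for miR-425-5p.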

How the data were processed

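Small RNAs were measured in 1 library of mouse and 1 of rat cauda sperm. The deposited values are counts of reads per distinct sequence, each with a strand, an annotation and its mismatches, per the file headers. The submitters' processing notes name Bowtie 0.12.7, mm9 and rn5, with no role for either build. How adapters were trimmed and databases ordered is not stated in the sources read here. The tables list 691381 mouse and 2102735 rat reads. A count of 0 allows up to 0.000434% and 0.000143% of these. Identifiers rank sequences by count, and 78279 mouse and 63001 rat identifiers have no line in these tables, so levels are of listed reads. In the mouse, 2535 sequences whose count had become a date were left out of all counts of reads and sequences, except where the month number is said to be used.

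Minus-strand sequences were turned back to the read's strand. Members were taken by name or by the first 18 nt and placed on RefSeq mouse hairpins without gaps, with up to 2 mismatches. The rat name miR-191a-5p was counted as miR-191-5p, and other miRNAs named differently in the 2 species were compared only by their first 18 nt. In the rat, reads that begin as miR-10b-5p stand under the name miR-10a-5p. Counts were scaled to 1000000 mature miRNA reads, and log2 ratios used a pseudocount of 1 on that scale with conditional binomial 95% intervals. Sequences came from the RefSeq table, in which some miRNAs have no entry, and those markers were counted by deposited name. Deposited files give no coordinates, so coordinates are those of GRCm38 in RefSeq and GENCODE M21.

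The text names every form of miR-191 and miR-425, the next miRNA above and below each in rank, the 3 names of nearest log2 ratio among those with at least 100 reads in both libraries, and preset clusters and markers. Members and lists were chosen with earlier results of these data known. The alternatives were counting by name only, perfect matches, sequences of at least 10 reads, reads of 20 to 24 nt, each distinct sequence once, restored dates and other scalings. The placement of reads was tested on simulated data. Python 3.11.15 was used with pandas 2.3.3, numpy 2.4.6, scipy 1.17.1 and matplotlib 3.10.9.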

Additional observations from a re-analysis of the deposited data

Results flagged for a closer look

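In the mouse table, 2 sequences of miR-191-5p and 1 of miR-425-5p have a date where the count should be, and they entered the values above only where the month number is named. Reading the month as the count gives 19 reads for miR-191-5p, of which caacggaatcccaaaagcAGCTTT, with G23T, has 11 and caacggaatcccaaaagcAGCTCT, with G23C, has 8. It gives 9 reads for miR-425-5p, all of them the encoded 24 nt form aatgacacgatcactcccGTTGAG, which had 8 reads in the rat. These are signals in data left out of the comparisons. With them miR-191-5p would have 2997 mouse reads and miR-425-5p 59.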

How the results depend on the processing

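Of 74 alternative values for 12 results, 44 stayed within counting error of the value reported and 30 moved. The log2 ratio of miR-191, 0.03, became -0.19 by name only, -0.20 with perfect matches only, 1.49 scaled to all listed reads, 0.33 scaled by the median ratio of names, whose longer reads are not counted, and -0.078 scaled to mature and GenBank microRNA entries together. That of miR-425, -0.52, became -1.08 with sequences of at least 10 reads and 0.93 scaled to all listed reads. The share of miR-425 in the cluster's reads, 1.65% for mouse and 2.40% for rat, became 1.22% and 1.89% with perfect matches and 0.619% and 1.32% with sequences of at least 10 reads. It became 1.20% in the mouse with reads of 20 to 24 nt and 1.88% in the rat by name only. Counting each distinct sequence once gave 18.1% and 21.8%.

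For miR-191-5p in the mouse and the rat, counting by name only gave 72.7% and 86.0% at the most frequent length and 0% and 0% longer than 23 nt, since names hold no longer read. Counting each distinct sequence once gave 50.8% and 59.0% at the most frequent length, 20.3% and 19.7% longer than 23 nt, 22.03% and 22.95% with a mismatched last base, and 79.7% and 88.5% with any mismatch. The gap in longer forms between the species was thus in read counts and not in the number of forms. With sequences of at least 10 reads, 2.70% and 2.71% held a mismatch. A mismatch within the last 3 bases was held by 3.27% in the rat. The cause was not tested for the others. That last alternative, the scaling that adds GenBank entries and every alternative for reads longer than 23 nt were chosen after seeing the data.

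No paired analysis was possible because each species has 1 library. There was no replicate, so differences between libraries cannot be told apart from differences between species. The 50 and 79 reads of miR-425-5p limit its shares to wide intervals. Identifiers not listed in the tables could hold further member reads, which were not analysed here.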

Other observations

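Some reads of the precursor entries escaped the choice of members because they do not share the first 18 nt. For miR-191 these were 25 mouse reads in 17 sequences, the highest with 4 reads, and 27 rat reads in 12 sequences, the highest with 16 reads. For miR-425 they were 1 mouse read and 2 rat reads. Within 3 nt of the 5p start and with up to 2 mismatches lay 25 mouse reads and 26 rat reads of miR-191.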
